A study of Mus musculus with 18 samples.

Results

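Egr1, Egr2, Egr3, Fosl1, Klf4 and Myc encode transcription factors of the immediate early class, and Dusp1 encodes a phosphatase of the same class that switches off MAP kinases. These 7 genes were followed through RAW264.7 cells, a mouse macrophage-like line, as all entries that carry their names in the authors' deposited table of called differences. They account for 10 transcript entries and 70 rows, out of 5455 named genes, 7315 entries and 34824 rows between the groups described here. Of the 70 rows, Egr1 has 16, Egr3 15, Egr2 12, Dusp1 9, Fosl1 8, Klf4 6 and Myc 4. The genes were picked by name, with earlier results of the same table known.

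Poly(A)-selected RNA was sequenced from 18 samples in 6 groups of 3. The first group was parental cells without treatment, and the second was parental cells with 100 ng/mL doxycycline. All 4 remaining groups were RAW264.7 cells carrying the lentiviral construct pINDUCER20-mCITED1, from which doxycycline switches on mouse CITED1, a transcriptional co-regulator. These construct cells had no treatment, 100 ng/mL doxycycline, 200 U/mL interferon-gamma, or both agents at those doses. No group of parental cells received interferon-gamma, so in interferon-gamma-treated cells an effect of doxycycline and an effect of induced CITED1 cannot be told apart. The length of each treatment is not given in the sources used here, which bears on genes whose transcripts come and go quickly, and neither is whether the construct line is 1 clone.

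Immediate early genes are switched on soon after a signal reaches the cell, without the need for new protein, because the factors that act on them (SRF with its ternary complex partners, CREB and others) are already present and only need to be phosphorylated. EGR1, EGR2 and EGR3 are zinc finger factors that bind GC-rich sites, FOSL1 joins a JUN protein to form AP-1, KLF4 is a zinc finger factor used in monocyte and macrophage differentiation, and MYC drives growth genes. DUSP1 removes phosphate from p38 and JNK and so limits the signals that switch many of these genes on. Interferon-gamma is the classical activator of macrophages, and many of its target genes carry GAS sites in their DNA.

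Promoter sequence was available for 3 of the 7 genes, Egr2, Dusp1 and Klf4, from the RefSeq promoter table of build GRCm38.p6. They are shown because only they were available. Egr2 and Dusp1 rose with interferon-gamma and Klf4 fell with it where doxycycline was absent. A link between these sequences and the values was not tested. Each line runs 5′ to 3′ along the gene's own strand up to the base before the first annotated start, and capitals mark matches to the motifs searched. Egr2 is shown from the plus strand at chr10:67537619-67537868, Dusp1 from the minus strand at chr17:26508520-26508722 and Klf4 from the minus strand at chr4:55532476-55532725.
Egr2: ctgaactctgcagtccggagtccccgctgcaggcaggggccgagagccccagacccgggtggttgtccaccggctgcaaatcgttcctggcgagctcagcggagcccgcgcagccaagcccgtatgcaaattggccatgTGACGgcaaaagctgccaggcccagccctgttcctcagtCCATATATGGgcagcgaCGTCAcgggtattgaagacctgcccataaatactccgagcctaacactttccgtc
Dusp1: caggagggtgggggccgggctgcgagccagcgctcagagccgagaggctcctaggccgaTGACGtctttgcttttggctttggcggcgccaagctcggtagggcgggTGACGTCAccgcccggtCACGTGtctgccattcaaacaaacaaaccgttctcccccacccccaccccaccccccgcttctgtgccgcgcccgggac
Klf4: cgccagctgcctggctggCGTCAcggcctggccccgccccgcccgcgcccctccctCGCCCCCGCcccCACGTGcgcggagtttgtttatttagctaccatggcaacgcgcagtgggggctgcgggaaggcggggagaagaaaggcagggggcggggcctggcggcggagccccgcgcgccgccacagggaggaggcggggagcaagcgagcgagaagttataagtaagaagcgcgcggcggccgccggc
The Egr2 window holds the CRE core TGACG, with its first base 111 bases before the RefSeq start, and the reverse of that core at 55 bases. Between them, at 72 bases, lies a CArG box, the sequence bound by SRF. The Dusp1 window holds a full CRE, TGACGTCA, at 143 bases, a separate core TGACG at 191 bases and an E-box, CACGTG, at 126 bases. The Klf4 window holds the reverse of the core at 232 bases, the reverse of the EGR site GCGGGGGCG at 194 bases and an E-box CACGTG at 182 bases. Among 32817 promoter windows of 300 bases in the same table, searched on both strands, 1.63% hold a CArG box, 1.79% the full CRE, 20.8% the core TGACG, 2.91% GCGGGGGCG and 7.15% CACGTG. The searches for the GAS letters TTCNNNGAA (in 8.29% of all windows), the ISRE core (3.43%), the AP-1 letters TGANTCA (7.81%), the EGR site GCGTGGGCG (0.612%) and TATAAA (13.6%) found no match in the 3 windows. Every full CRE also contains the core on both strands, so those matches overlap. Distances are to the RefSeq start, which for Dusp1 lies 47 bases beyond the GENCODE start of its entry, where the printed line ends. A match is a description of letters, and binding was not measured.

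The table gives, for each called pair of groups, a fold change, a direction, the summed FPKM of both groups and a q-value (a p-value adjusted for multiple tests by the authors), and no value per sample. Levels are FPKM (fragments scaled by transcript length and library size) rebuilt from the fold and the sum, so they compare genes per length, and none has an SD. The 53 rebuilt levels of the 7 genes differed by a median of 0.0605% when computed from different rows. The authors listed only changes of 2-fold or more whose q was below 0.05, and a missing row does not show that a gene was unchanged. A gene with a high level in a group can also lack a row, for a reason not given. The dendritic cell gene Clec9a had 133 FPKM with both agents and no row against construct cells with doxycycline. A level belongs to its transcript entry, and entries without a row are not seen, so it need not be that of the whole gene. Whether the 3 samples of a group were separate cultures is not stated in the labels. In bulk RNA, more transcript per cell and more cells expressing a gene cannot be told apart.

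Cited1, the gene carried by the construct, stood at 0.703 FPKM in untreated construct cells, 168 with doxycycline, 11.5 with interferon-gamma and 86.7 with both. In the authors' deposited table it was 238.85-fold higher with doxycycline alone, 16.33-fold higher with interferon-gamma alone and 7.55-fold higher with both agents than with interferon-gamma alone. Cited1 was thus already above its untreated level in cells given interferon-gamma without doxycycline. Macrophage identity genes had a row for 7 of 15 list members, and their summed level ran from 228 to 1058 FPKM across groups, over different sets of genes. Adgre1, the gene of the macrophage surface marker F4/80, had levels of 28.6 and 32.6 FPKM in parental cells, 12.2 and 13.9 in construct cells, and 7.10 and 5.03 in construct cells given interferon-gamma without and with doxycycline. With interferon-gamma, 2 macrophage genes were called higher (Aif1 and Fcgr1) and 1 lower (Cebpa) without doxycycline, and 3 higher (Aif1, Fcgr1 and Spi1) and 4 lower (Adgre1, Cd68, Cebpa and Itgam) with it. Without doxycycline these are 13.3% and 6.67% of the list, and 28.6% and 14.3% of its 7 members with a row. The shares of all listed genes were 25.7% and 24.5%. With doxycycline the called genes are 20% and 26.7% of the list and 42.9% and 57.1% of those with a row, beside 33.7% and 34%. Aif1, a cytoskeletal protein of macrophages, went from 3.03 to 40.8 FPKM and Fcgr1, a high-affinity IgG receptor, from 14.1 to 87.5 without doxycycline, and Spi1, the macrophage master regulator PU.1, from 151 to 350 with it. Of 24 markers of other cell types only the dendritic cell genes Clec9a, Xcr1 and Zbtb46 had a row. Their summed level, over different sets of genes, was 0.182 to 0.269 FPKM in groups without interferon-gamma, 87.6 with it and 150 with both. Its part in the results was not tested. Fibroblast, epithelial, T cell and B cell markers had no row, which does not show that they were at 0.

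**Figure D1:**
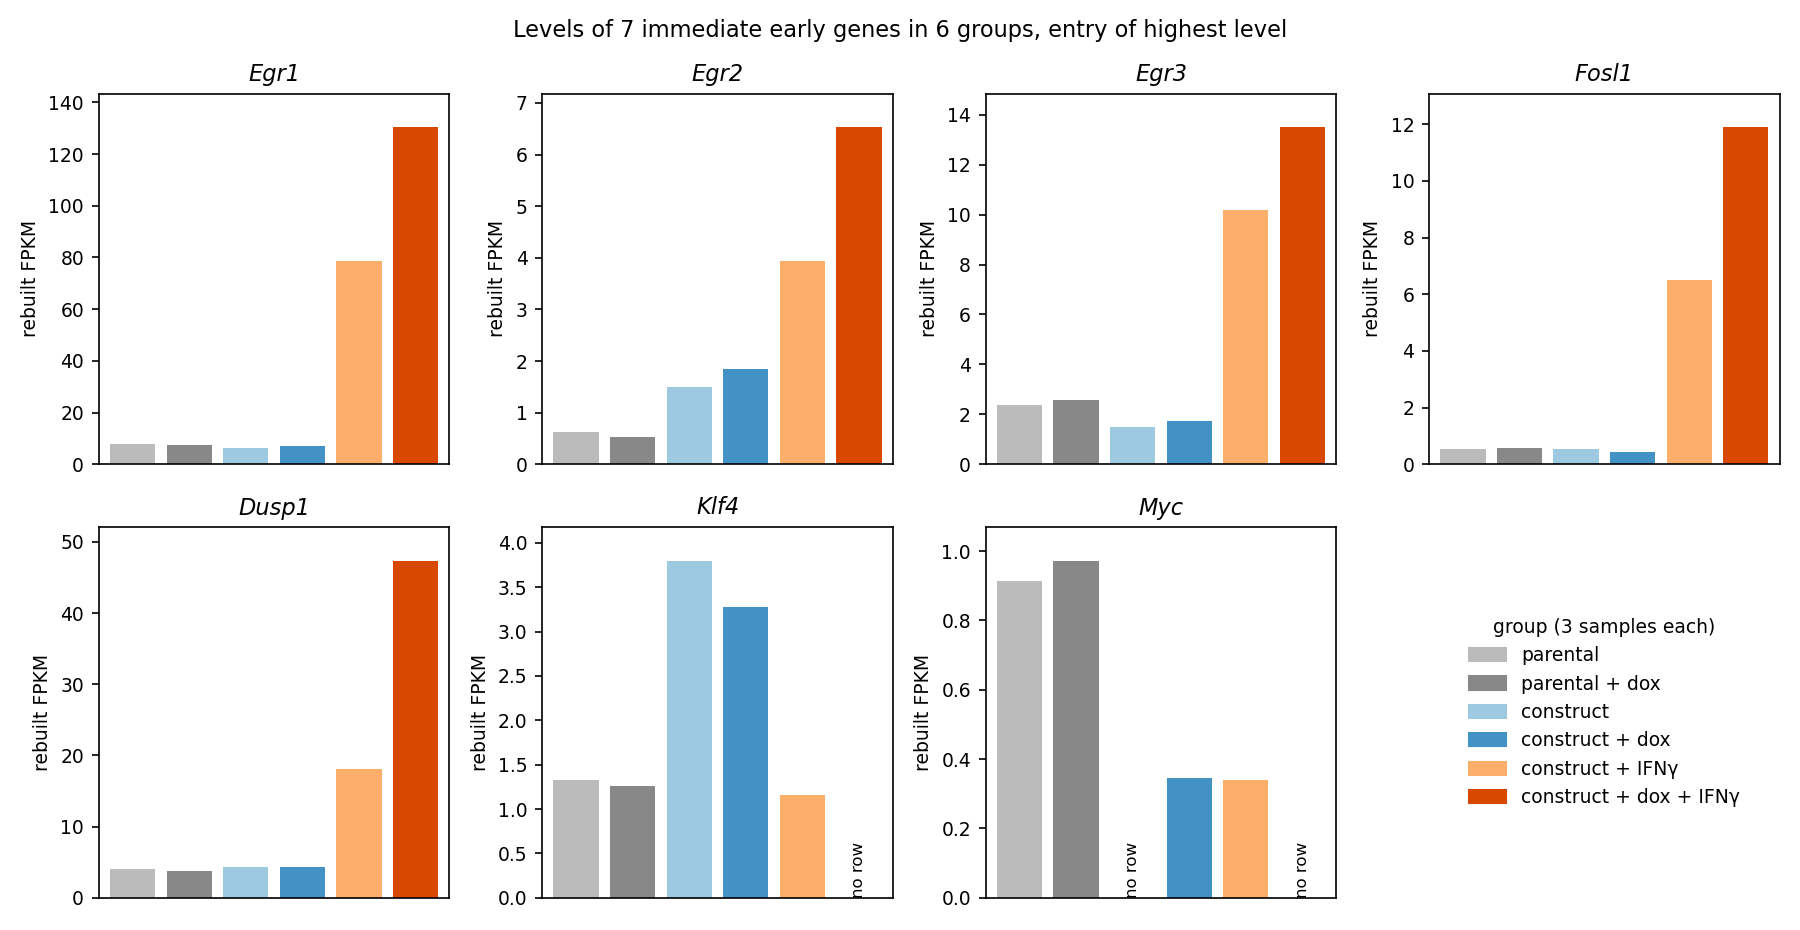
Rebuilt FPKM (vertical axes, linear from 0, a scale for each gene) of the 7 genes in the 6 groups, for the entry with the highest level of each gene. Bars are the authors' group values without error bars. Egr1, Egr3, Fosl1 and Dusp1 are high in both groups given interferon-gamma, Egr2 is also higher in construct than in parental cells, and Klf4 is highest in construct cells without interferon-gamma.

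Egr1 was the most abundant of the 7 genes after interferon-gamma. Its main entry, ENSMUST00000165033, stood at 7.92 FPKM in untreated parental cells, 7.51 in parental cells with doxycycline, 6.16 in untreated construct cells and 7.02 in construct cells with doxycycline. It reached 78.6 FPKM with interferon-gamma and 130 with both agents. The 4 groups without interferon-gamma had no row between them, and both groups with it had a row against each of the 4, while no row separates the 2 from each other. The authors' deposited table gives Egr1 as 12.76-fold higher with interferon-gamma in the absence of doxycycline and 18.58-fold higher in its presence. The other Egr1 entry, ENSMUST00000064795, ran lower at 1.86 to 2.80 FPKM without interferon-gamma, 24.1 with it and 42.2 with both, and its deposited folds in the authors' table were 12.24 and 18.74. Across all 16 Egr1 rows the deposited folds in the authors' table were 8.62 to 22.7, all higher in the group with interferon-gamma.

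Egr3 was also low without interferon-gamma and high with it, at a lower level than Egr1. Its main entry, ENSMUST00000225200, had 2.37 FPKM in parental cells, 2.56 with doxycycline, 1.51 in construct cells, 1.72 with doxycycline, 10.2 with interferon-gamma and 13.5 with both. The groups without interferon-gamma lie within 1.51 to 2.56 FPKM and do not meet the groups with it. In the authors' deposited table Egr3 was 6.75-fold higher with interferon-gamma alone and 7.83-fold higher with interferon-gamma when doxycycline was present. The smaller entry ENSMUST00000035908 had 2.45 FPKM with interferon-gamma and 2.53 with both, against 0.325 in construct cells with doxycycline. For that entry the authors' deposited table gives a 7.8-fold rise with a q of 0.0386. The entry ENSMUST00000223747, annotated in GENCODE M21 as a retained intron of 1 exon, went from 0.553 FPKM in construct cells to 3.10 with interferon-gamma, 5.6-fold in the authors' deposited table. The entry that keeps intron sequence thus moved in the same direction as the spliced ones.

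Egr2 was called higher in construct than in parental cells before interferon-gamma and rose further with it. Its level was 0.630 FPKM in parental cells and 0.529 with doxycycline, and 1.49 in construct cells and 1.85 with doxycycline. With interferon-gamma it reached 3.93 FPKM, and with both agents 6.53. The levels thus form 3 steps, parental, construct and construct with interferon-gamma, with a row in the table between every pair of groups from different steps and none within a step. The authors' deposited table gives Egr2 as 2.37-fold higher in untreated construct than in untreated parental cells and 3.5-fold higher where both had doxycycline. With interferon-gamma Egr2 rose 2.63-fold without doxycycline and 3.53-fold with it, per the authors' deposited table. Measured from parental cells, the group with both agents was 10.36-fold higher against untreated and 12.35-fold higher against doxycycline-treated cells in the authors' deposited table. Such pairs change the cell line and the agents together.

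Fosl1, the FOS-related partner in AP-1, was low without interferon-gamma and had the largest fold of the 7 genes in the interferon-gamma comparison with doxycycline. It stood at 0.551, 0.571, 0.540 and 0.416 FPKM in parental cells, parental cells with doxycycline, construct cells and construct cells with doxycycline. With interferon-gamma it stood at 6.50 FPKM and with both agents at 11.9. All 4 groups without interferon-gamma were under 1 FPKM, and both with it were far above them. In the authors' deposited table Fosl1 rose 12.05-fold with interferon-gamma without doxycycline (q = 0.00143) and 28.57-fold with doxycycline (q = 7.47e-04). The deposited folds of its 8 rows in the authors' table ran from 11.39 to 28.57.

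Dusp1 differed from the others in the last comparison. Its level was 4.08 FPKM in parental cells, 3.77 with doxycycline, 4.27 in construct cells, 4.27 with doxycycline, 18.1 with interferon-gamma and 47.3 with both. The groups without interferon-gamma span 3.77 to 4.27 FPKM, and no row lies between them. The authors' deposited table gives Dusp1 as 4.24-fold higher with interferon-gamma, 11.08-fold higher with interferon-gamma in the presence of doxycycline, and 2.61-fold higher with both agents than with interferon-gamma alone (q = 0.00109). It was the only one of the 7 genes with a row in that last comparison. Without interferon-gamma, construct cells without and with doxycycline both had 4.27 FPKM of Dusp1, and 0.703 and 168 FPKM of Cited1. The part of CITED1 in the Dusp1 levels was not tested.

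Klf4 was the only one of the 7 genes called lower with interferon-gamma, in the comparison without doxycycline. It had 1.33 FPKM in parental cells and 1.26 with doxycycline, 3.80 in construct cells and 3.28 with doxycycline, and 1.16 in construct cells given interferon-gamma. No row gives its level with both agents. In the authors' deposited table Klf4 was 2.86-fold higher in untreated construct than in untreated parental cells and 2.6-fold higher where both had doxycycline. Interferon-gamma without doxycycline lowered Klf4 3.29-fold in the authors' deposited table, which left it at a level for which no row separates it from parental cells. With doxycycline present, the interferon-gamma comparison has no Klf4 row.

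Myc had 1 listed transcript entry, with 0.913 FPKM in parental cells, 0.972 with doxycycline, 0.346 in construct cells with doxycycline and 0.339 in construct cells with interferon-gamma. Both parental groups lie above both construct groups that have a level. The authors' deposited table gives Myc as 2.81-fold lower in construct than in parental cells where both had doxycycline (q = 0.00109). Construct cells with interferon-gamma were 2.7-fold lower than untreated parental cells (q = 0.00544) and 2.86-fold lower than parental cells with doxycycline (q = 0.00395) in the authors' deposited table, pairs that change the line and the agent together. No Myc row exists for untreated construct cells or for cells given both agents, and none for interferon-gamma against no interferon-gamma within construct cells. All levels of this Myc entry are under 1 FPKM. Any other Myc transcript without a row is not seen, so the level and change of the whole gene are not known.

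Interferon-gamma without doxycycline raised 5 of the 7 genes (Egr1, Egr2, Egr3, Fosl1 and Dusp1), lowered Klf4 and gave no Myc row. Of all 5455 named genes listed in any comparison between the 6 groups, 25.7% were called higher and 24.5% lower in the same comparison. Ordered by fold among the 1404 genes called higher, Egr1 was at place 118, Fosl1 at 126, Egr3 at 233, Dusp1 at 425 and Egr2 at 851. The median fold of those 1404 genes in the authors' deposited table was 2.9, so Egr1, Fosl1, Egr3 and Dusp1 lie above it and Egr2 below. Klf4 was at place 410 of the 1334 genes called lower, whose median fold in the authors' deposited table was 2.71.

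With doxycycline present in both groups, interferon-gamma raised the same 5 genes, and neither Klf4 nor Myc had a row. The background was 33.7% of listed genes higher and 34% lower. Among 1837 genes called higher, with a median fold of 3.15 in the authors' deposited table, Fosl1 stood at place 76, Egr1 at 112, Dusp1 at 203, Egr3 at 285 and Egr2 at 784. The lists of 1404 and 1837 genes differ in length, so places in one cannot be read as moves from the other. The interferon-gamma comparisons without and with doxycycline share no samples. The median log2 ratio over listed entries of at least 1 FPKM was 0.65 in the first and 1.02 in the second. Entries are listed only through called rows, so these medians do not measure a shift over all genes. The rises of Egr1, Egr3, Fosl1 and Dusp1 exceed those medians by more than 2-fold, while that of Egr2 does not.

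**Figure D2:**
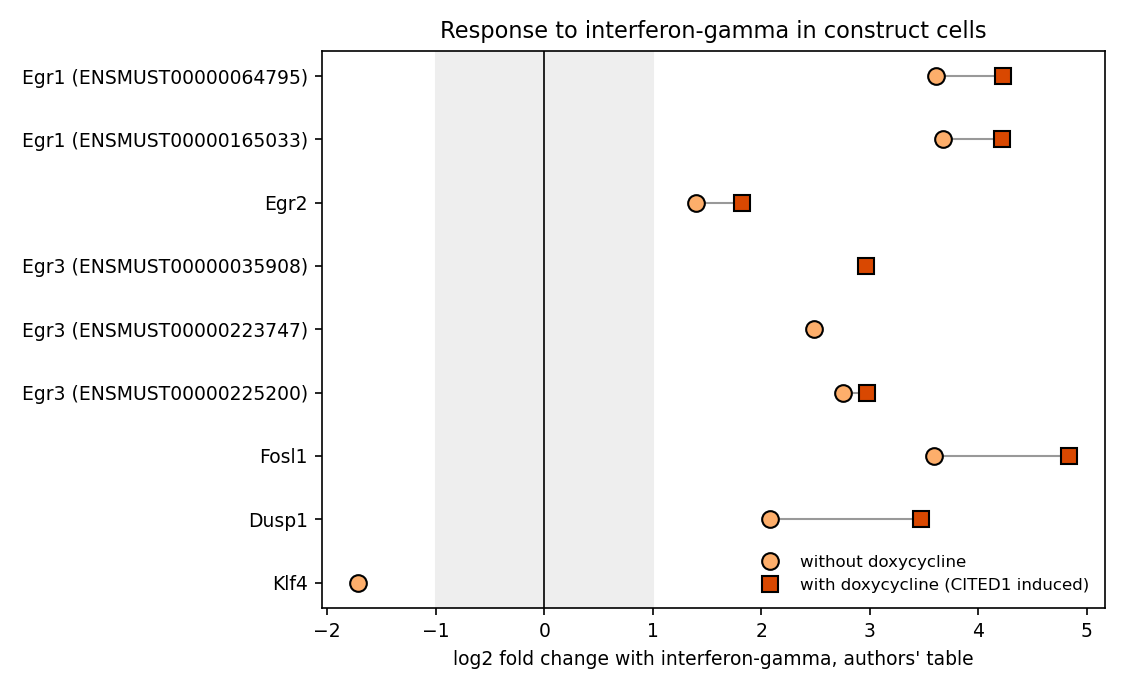
Log2 fold change with interferon-gamma in construct cells from the authors' deposited table (horizontal axis), for each entry with a row, without doxycycline (circles) and with it (squares). Grey marks changes under 2-fold, which the table leaves out. Klf4 is the only gene to the left of 0, and the distance between circle and square is widest for Dusp1 and Fosl1.

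The interferon-gamma fold with doxycycline, divided by that without it, was 2.61 for Dusp1, 2.37 for Fosl1, 1.46 for Egr1 (1.53 for its other entry), 1.34 for Egr2 and 1.16 for Egr3. Over the 1402 entries raised by interferon-gamma both without and with doxycycline the median of this ratio was 1.29. Egr3 is under that median, Egr2 is close to it and Dusp1 and Fosl1 are furthest above it. The difference between the folds was not tested, since the table holds no value per sample.

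Set directly against each other, cells with both agents had more of each of the 5 induced genes than cells with interferon-gamma alone, but only for Dusp1 did the authors call the difference. The level ratios were 2.61 for Dusp1, 1.83 for Fosl1, 1.66 for Egr1 (1.75 for its other entry), 1.66 for Egr2 and 1.33 for the main Egr3 entry. The remaining Egr3 entries had 1.03 (ENSMUST00000035908) and 1.54 (ENSMUST00000223747). All 8 entries were above 1, with a median of 1.66, and Dusp1 alone passed the 2-fold limit of the table. The count of 1 of 7 members called higher and 0 lower stands beside 6.84% of listed genes higher and 6.34% lower. Over the 1402 entries raised by interferon-gamma the median ratio was 1.33 and 83.3% lay above 1, and over 3859 entries with both levels the median was 1.07 and 57.1% lay above 1. A ratio above 1 is therefore common among genes that interferon-gamma raises, and among the 8 entries Dusp1 alone lies outside the middle 80% of them. Dusp1 was at place 158 of 373 genes called higher in this comparison, whose median fold in the authors' deposited table was 2.46.

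**Figure D3:**
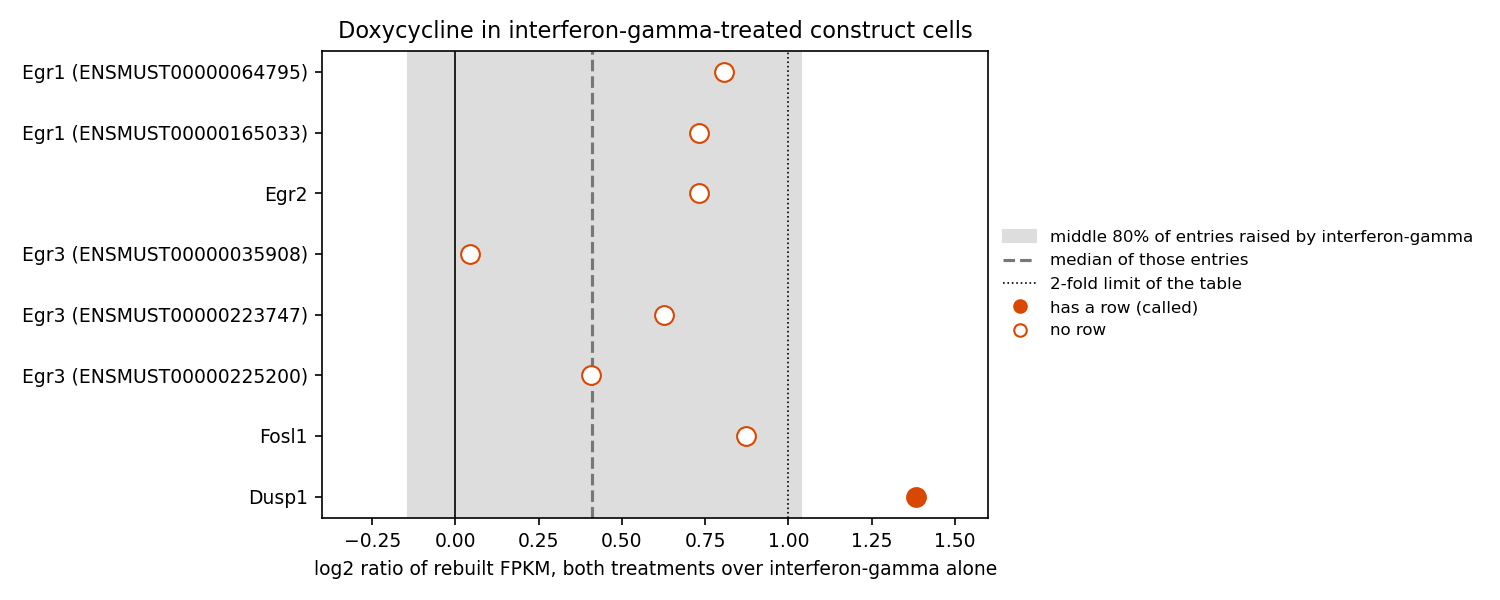
Log2 ratio of rebuilt FPKM in construct cells with both agents over interferon-gamma alone (horizontal axis), for the 8 member entries with both levels. The grey band and dashed line give the middle 80% and the median of 1402 entries raised by interferon-gamma. Dusp1, the filled point, is the entry with a row in the table and lies right of the band, and the open points lie inside it.

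Doxycycline in the absence of interferon-gamma gave no row for any of the 7 genes, in parental or in construct cells. The background was 0.11% of listed genes higher and 0.788% lower in parental cells, and 0.202% higher and 0.202% lower in construct cells. A change under 2-fold or with a larger q would not be listed. Levels taken from other pairs were 6.16 against 7.02 FPKM for the main Egr1 entry, 4.27 against 4.27 for Dusp1 and 0.540 against 0.416 for Fosl1 without and with doxycycline in construct cells. In parental cells the smaller Egr1 entry had 2.80 against 1.86 FPKM, 1.51-fold apart, with no row.

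Construct cells differed from parental cells in Egr2 and Klf4 without any agent, with 2 of the 7 genes higher and 0 lower against a background of 1.72% and 2.77% of listed genes. Where both lines had doxycycline the same 2 genes were higher and Myc was lower, against 2.44% and 3.17%. By fold Klf4 stood at place 40 and Egr2 at place 60 of 94 genes called higher without doxycycline. With doxycycline Egr2 stood at place 38 and Klf4 at place 69 of 133 genes called higher, and Myc at place 89 of 173 genes called lower. The median folds of those 173 genes and of the 133 were 2.87 and 2.62 in the authors' deposited table. The 2 comparisons of the lines use different samples. The part of the construct itself in these differences was not tested.

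Other genes of the same kind were counted in lists written with earlier results known. A list's share called is given over the whole list and over its members with a row in any comparison, since the background over all genes is also taken over listed genes. Among 20 AP-1 and bZIP genes, 6 were higher and 0 lower with interferon-gamma without doxycycline, with a median log2 change of 1.94 against 1.54 over all genes called higher. These 6 are 30% of the list and 60% of its 10 listed members, beside 25.7% of all listed genes. Batf2, which encodes a BATF-family partner of JUN proteins, went from 0.334 to 153 FPKM, 457.79-fold in the authors' deposited table. Maff, a small MAF factor, went from 2.22 to 18.7 FPKM, Atf3, a stress-induced CREB-family factor, from 70.0 to 289, and Junb, an AP-1 subunit, from 77.3 to 275. Junb and Atf3 are thus higher than Fosl1 by level, and Batf2 changed far more by fold. With doxycycline 8 of the 20 were higher and 0 lower with interferon-gamma, among them Maff (2.32 to 29.6 FPKM), Atf3 (57.5 to 343), Junb (69.7 to 410) and Bach1 (9.53 to 40.0), a heme-sensitive repressor. The 8 are 40% of the list and 80% of its 10 listed members, beside 33.7% of all listed genes. Batf2, at 268 FPKM with both agents, has no row in this comparison and is not among the 8. With both agents against interferon-gamma alone 2 of the 20 were higher (Batf2 and Fos) and 0 lower. Those 2 are 10% of the list and 20% of its listed members, beside 6.84% of all listed genes higher. The Batf2 call rests on a minor entry of 0.360 and 0.850 FPKM, and the abundant Batf2 entry, at 153 and 268 FPKM, has no row there. Fos, the founding member of the AP-1 family, had 6.28 FPKM with interferon-gamma alone and 16.0 with both agents, which the authors' deposited table gives as 2.55-fold higher.

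Of the 6 EGR partners and NR4A factors, Nab2, a co-repressor that binds EGR1, was the only one with a row. It went from 13.5 to 28.6 FPKM with interferon-gamma without doxycycline (q = 0.00334 in the authors' deposited table) and from 13.7 to 40.5 with doxycycline. This 1 gene is 16.7% of the list and 100% of its listed members, beside 25.7% and 33.7% of all listed genes.

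Of 42 symbols of other immediate early genes, 19 were higher and 2 lower with interferon-gamma without doxycycline, and 21 and 2 with it. The 19 are 45.2% of the list and 61.3% of its 31 listed members, beside 25.7% of all listed genes. The 21 are 50% and 67.7%, beside 33.7%. The 2 lower in each setting are 4.76% of the list and 6.45% of its listed members, beside 24.5% and 34% of all listed genes. Zfp36, whose protein speeds decay of cytokine messages, went from 11.2 to 140 FPKM, Phlda1 from 1.36 to 21.4, Nfkbiz, a nuclear IκB protein, from 1.28 to 13.9, and Trib1, a pseudokinase, from 1.67 to 16.6. With doxycycline present the largest folds in the authors' deposited table were for Trib1 (22.58), Phlda1 (17.7), Zfp36 (16.91) and Nfkbiz (16.52). Against parental cells the same list went the other way in construct cells, with 0 higher and 5 lower without doxycycline and 0 higher and 8 lower with it. The 5 are 11.9% of the list and 16.1% of its listed members, beside 2.77% of all listed genes called lower. The 8 are 19% and 25.8%, beside 3.17%. Plk2, a polo-like kinase, had 50.5 FPKM in untreated parental and 18.4 in untreated construct cells, and was 4.01-fold lower with doxycycline in the authors' deposited table. Ptgs2, the inducible cyclooxygenase, was 2.16-fold lower without doxycycline and 2.86-fold lower with it in the authors' deposited table. Egr2 and Klf4 were thus called higher between the lines where no gene of this list was. With both agents against interferon-gamma alone, 2 of the list were higher (Arc and Btg2) and 3 lower (Ier5l, Sgk1 and Gadd45a, the last from 3.15 to 1.31 FPKM). These are 4.76% and 7.14% of the list, near the 6.84% and 6.34% of all listed genes. Over its listed members they are 6.45% and 9.68%.

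Dusp1 belongs to a family of MAP kinase phosphatases, and 18 other genes of that family and of ERK feedback were counted. Without doxycycline 5 were higher and 2 lower with interferon-gamma, and with doxycycline 5 were higher and 4 lower. The 5 are 27.8% of the list and 50% of its 10 listed members in each setting, beside 25.7% and 33.7% of all listed genes, so over the whole list the share was near or below the background. The 2 lower are 11.1% of the list and 20% of its listed members, beside 24.5%. The 4 lower are 22.2% and 40%, beside 34%. Dusp2, which encodes a nuclear phosphatase of activated leukocytes, went from 1.35 to 33.1 FPKM, 24.5-fold in the authors' deposited table, and with doxycycline from 1.18 to 117, 98.61-fold. Dusp5, a nuclear ERK phosphatase, rose 11.63-fold without doxycycline and 31.76-fold in its presence, per the authors' deposited table. Dusp10, a p38 and JNK phosphatase, rose 16.22-fold without doxycycline in the authors' deposited table, and Spred3 went from 0.824 to 8.58 FPKM. Dusp3 and Dusp22 fell in both settings, and Dusp7 (12.7 to 3.10 FPKM) and Spry2 (3.03 to 1.48) fell with doxycycline. With both agents against interferon-gamma alone, 2 of this list were higher (Dusp2 and, under 1 FPKM, Dusp8) and 1 lower (Dusp7). These are 11.1% and 5.56% of the list and 20% and 10% of its listed members, beside 6.84% and 6.34% of all listed genes. Dusp2 was 3.52-fold higher and Dusp7, a cytoplasmic ERK phosphatase, 2.93-fold lower in the authors' deposited table, beside the 2.61-fold of Dusp1. Among 36 genes of the ERK cascade, SRF and its ternary complex factors, 4 were higher (Braf, Map3k8, Rps6ka1 and Rps6ka3) and 0 lower without doxycycline and 7 and 0 with it. The 4 are 11.1% of the list and the 7 are 19.4%, under the background, and 30.8% and 53.8% of its 13 listed members. The largest fold was that of Rps6ka3, an ERK-activated kinase, at 2.70 to 20.5 FPKM and 2.60 to 32.4 FPKM.

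Of 16 other KLF genes, Klf8 alone was called without doxycycline, higher at 0.833 to 3.25 FPKM, in contrast to the fall of Klf4. It makes up 6.25% of the list and 20% of its 5 listed members, beside 25.7% of all listed genes called higher. With doxycycline Klf8 was higher and 2 were lower with interferon-gamma, Klf11 (2.97-fold) and Klf9 (2.35-fold in the authors' deposited table). The 2 are 12.5% of the list and 40% of its 5 listed members, beside 34% of all listed genes called lower. With both agents against interferon-gamma alone 0 were higher and 4 lower, namely Klf11, Klf7, Klf10 and Klf9, with deposited folds of 2.82, 2.26, 2.07 and 2.04 in the authors' table. The 4 are 25% of the list and 80% of its 5 listed members, beside 6.34% of all listed genes called lower. Klf10 had the highest level of these, at 17.3 against 8.36 FPKM.

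Around Myc, the network of its dimer partners and competitors and its target genes were counted. Of 15 network genes 1 was higher and 2 lower with interferon-gamma without doxycycline, and 3 (Mxd1, Max and Mlx) and 2 with it. Without doxycycline these are 6.67% and 13.3% of the list, and 20% and 40% of its 5 listed members. The shares of all listed genes were 25.7% and 24.5%. With doxycycline the called genes are 20% and 13.3% of the list and 60% and 40% of its listed members, beside 33.7% and 34%. Mxd1, a repressor that competes with MYC for MAX, went from 1.93 to 48.7 FPKM with interferon-gamma without doxycycline and from 2.26 to 150 with it, and Mxd4 (8.48 to 4.10) fell without doxycycline. Mxi1 was called lower on entry ENSMUST00000111737 (15.4 to 4.04 FPKM without doxycycline), while its other entry, ENSMUST00000003870, had 44.6 FPKM with interferon-gamma, 33.7 with both agents and 20.9 with doxycycline, and no row in either interferon-gamma comparison within construct cells, so the gene as a whole has no clear direction. Max, the dimer partner, went from 42.9 to 105 FPKM with doxycycline. Adding doxycycline to interferon-gamma gave a further 3.08-fold rise of Mxd1, per the authors' deposited table. Of 37 MYC target genes of ribosome and nucleotide synthesis, 1 was higher and 18 lower with interferon-gamma without doxycycline, and 2 were higher and 21 lower with it. The 18 are 48.6% of the list and 69.2% of its 26 listed members, beside 24.5% of all listed genes, and the 21 are 56.8% and 80.8%, beside 34%. Genes of the list called lower had a median log2 change of -1.65 and -1.58, close to -1.44 and -1.54 over all genes called lower. Srm, spermidine synthase, went from 92.0 to 18.7 FPKM and from 85.2 to 11.6, Cad, the enzyme that starts pyrimidine synthesis, from 31.3 to 8.13 and from 29.4 to 4.87, and Umps, a later pyrimidine enzyme, from 18.6 to 4.72 without doxycycline. The called Npm1 entry, with the largest fold, is a minor one at 0.304 FPKM with interferon-gamma. Odc1 was 4.52-fold higher with doxycycline in the authors' deposited table, as the exception of largest fold. No gene of the list had a row with both agents against interferon-gamma alone, and Myc itself had no row in any of these 3 comparisons.

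Of 17 genes in a list around macrophage activation states and EGR2, KLF4 or MYC, 2 were higher (Il4ra and Tgm2) and 0 lower with interferon-gamma in each setting. Those 2 are 11.8% of the list, under the 25.7% and 33.7% of all listed genes, and 66.7% of its 3 listed members. With both agents, Tgm2, a transglutaminase, had 74.6 FPKM against 10.5 with interferon-gamma alone, 7.1-fold higher per the authors' deposited table. Fpr2, a formyl peptide receptor, was 2.93-fold higher there, and its place in the list does not make it a marker of alternative activation. Tgm2 and Fpr2 are 11.8% of the list and 66.7% of its 3 listed members, beside 6.84% of all listed genes called higher.

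**Figure D4:**
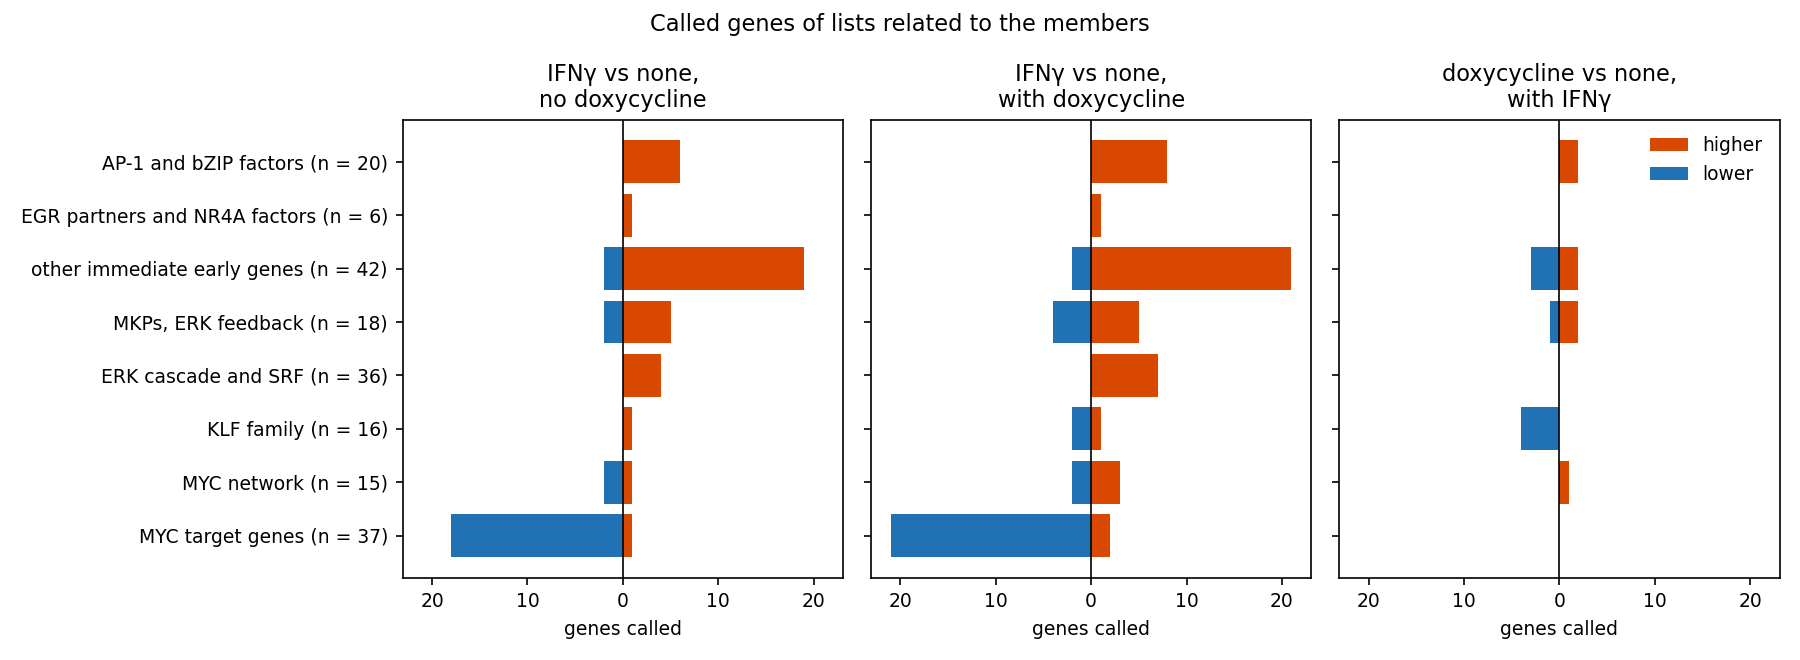
Numbers of genes called higher (orange, right) and lower (blue, left) in lists related to the members, in 3 comparisons within construct cells. List sizes are on the vertical axis labels. AP-1 and other immediate early genes lie to the right with interferon-gamma, MYC target genes to the left with 18 and 21 lower, and the KLF family to the left with 4 lower when doxycycline was added to interferon-gamma.

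Genes with the most similar pattern over the 4 construct groups were found by the root mean square difference of centred log2 levels, among 2546 genes with a level in all 4. For Egr1 the nearest was Zfp36 at 0.0728, followed by Pmaip1, Glrx, Aif1 and Il12rb1. For Fosl1 the nearest was another Zfp36 entry at 0.0417, followed by Dusp5, Traf1, Il12rb1 and Trib1. Egr3 was nearest to Sting1 (0.0517), Dusp1 to Trim21 (0.0557) and Egr2 to Zscan29 (0.0276). Among the members themselves Egr1 and Fosl1 were the closest pair of genes, at 0.245, then Egr3 and Dusp1 at 0.354, and Egr2 and Fosl1 the furthest apart at 1.33. With 4 points per gene these are descriptions of shape only.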

How the data were processed

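Poly(A)-selected, strand-specific libraries were made, per the labels' protocols. Tools named in the submitters' processing notes are Cuffdiff 2.2.1, STAR 2.5.3a, FastQC 0.11.5, edgeR and featureCounts, with no roles. Which build and annotation the authors used is not given in the sources used here. From the 112230 rows of 1 deposited table come the authors' linear fold ratio, direction, summed FPKM and q-value per pair of groups, filtered at 2-fold and a q of 0.05. Its 77406 rows with groups outside the 6 were not used. Of the rows used, 71.8% share the smallest q, 3.87e-04. Depth and replicate spread are unknown, so no test was run, although the design had foreseen limma had values per sample been present.

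The lower FPKM of a pair was rebuilt as the sum divided by 1 plus the fold, the higher as that times the fold, and levels are medians over rows. A run on simulated levels without noise checked only that this arithmetic inverts, not the calls or the reading of the summed FPKM. A gene was called higher or lower if all its rows went that way, and its value is that of the entry with the highest summed FPKM. The members and the 11 gene lists were chosen with earlier results of these data known. From each list up to 4 called genes of at least 1 FPKM with the largest folds are named, plus a few chosen after their values were seen (Braf, Map3k8, Dusp3, Dusp8, Dusp22, Spry2, Mlx, Odc1, Ier5l, Sgk1 and others in counts of 5 or fewer). Likeness gives the 5 nearest genes. Transcript annotation is from GENCODE M21. Python 3.11.15, pandas 2.3.3 and numpy 2.4.6 were used.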

Additional observations from a re-analysis of the deposited data

How the results depend on the processing

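Alternatives for each count were a q of 0.01 or less, at least 1 FPKM in the higher group, a pseudocount of 1 FPKM, a 3-fold limit, and centring each comparison on its median log2 ratio (rescaled). The alternatives for the gene lists were chosen after seeing the data. The median used for rescaling is over listed entries only, so rescaling does not remove a known shift over all genes. Of the members' counts, 76 values stayed within 1.5 times and 8 moved. The 76 include every count of 0, which had to stay, since the alternatives only filter rows or count entries. Of the lists' values, 75 stayed and 20 moved. None of the members' log2 ratios reversed, and with a pseudocount none could. Of the 42 member log2 ratios, 35 kept their side of 2-fold and 7 fell under it: with the pseudocount, Egr2 in 3 comparisons (0.61, 0.90 and 0.98), Klf4 (0.92) and Myc (-0.55), and rescaled, Egr2 with interferon-gamma (0.75 and 0.80). With interferon-gamma the 5 higher members became 4, by the loss of Egr2, with the pseudocount, at 3-fold and rescaled without doxycycline, and rescaled with it, and 7 when entries were counted.

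With the pseudocount, members higher in construct cells went from 2 to 1 without doxycycline and from 2 to 0 with it, and Myc, the 1 lower, to 0. At 3-fold these were 0, 1 and 0, Myc was also 0 at 1 FPKM, and Dusp1, the 1 gene higher with both agents over interferon-gamma alone, became 0. Other immediate early genes lower in construct cells went from 5 to 1 with the pseudocount and 0 at 3-fold without doxycycline, and from 8 to 3 and 2 with it. With both agents over interferon-gamma the 3 lower became 1 at 1 FPKM, 0 with the pseudocount and 1 at 3-fold, and the 4 lower KLF genes 0 with the pseudocount and 0 at 3-fold. With interferon-gamma without doxycycline, the 4 higher ERK cascade genes became 1 at 3-fold and 1 rescaled, and the 3 higher markers of other cell types 1 at a q of 0.01. With doxycycline, the 8 AP-1 genes became 4 rescaled, the 7 ERK cascade genes 4 at 3-fold and 2 rescaled, the 3 higher MYC network genes 1 at 3-fold and 1 rescaled, the 4 lower phosphatase and feedback genes 2 at 3-fold, the 21 lower MYC targets 12 at 3-fold, and lower macrophage genes 1 at 3-fold.

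No paired analysis was possible because the table holds no values per sample, and leaving out single replicates was not run for the same reason. Genes under 2-fold or above a q of 0.05 have no row, and some genes with a high level in a group also lack one. Both limit every statement about absence.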
